A study of Mus musculus with 21 samples.

Results

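A group of 36 genes known as markers of central neurons, oligodendrocytes and astrocytes was followed through RNA-seq of 21 mouse hearts. The members are a list of named genes. All 36 were found by name among the 19096 genes of the deposited gene matrix, and all 36 were among the 15216 genes that passed the filter on low counts, of 23718 genes with reads. The list was drawn up with the levels in the hearts of chow-fed mice given renin already known, so every contrast that holds those hearts is given as a description, and nothing is read from the calls made in it. Chow control was the other side of the contrast that chose the list, so the values against it are not independent of that choice either. High-fat renin against high-fat control is the comparison that uses neither.

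All hearts came from male C57BL/6NJ mice that were 8 to 10 weeks old at the start. The mice ate chow or a high-fat diet, in which fat gave 60% of the energy, for 10 weeks, and were given an adeno-associated virus (AAV) carrying renin or a control, with tissue taken 6 weeks after injection into the retro-orbital sinus. On chow there were 4 control hearts (chow control) and 6 with renin (chow renin), and on the high-fat diet 6 control hearts (high-fat control) and 5 with renin (high-fat renin), with 1 library for each heart. The sample labels call the controls no virus, whereas the series text says that they received a null vector. The study uses diet and renin together to model a heart failure in which the ejection fraction is preserved. The promoter, serotype and target tissue of the vector are not given in the sources used here.

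Neurons pass signals at synapses. Vesicles docked by SNARE proteins release glutamate or GABA, which act on AMPA, NMDA and GABA receptors of the next cell. Oligodendrocytes wrap central axons in myelin, and astrocytes take up released glutamate. The heart receives sympathetic, parasympathetic and sensory axons, has small ganglia of its own and contains Schwann cells, but oligodendrocytes and the cell bodies of cortical neurons belong to the brain and spinal cord. Several of the members, such as Stmn2, Gap43, Tubb3, Nefl and Nefm, are also used by peripheral neurons. In bulk tissue, fewer cells of a type and less RNA per cell cannot be told apart.

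The cardiomyocyte genes identified every library as heart: Myh6, Tnnt2, Actc1, Atp2a2 and 6 others together held 58944 to 85710 CPM (counts per 1 M). Library totals were 18.7 to 21.4 M estimated reads in chow control, 24.4 to 27.4 in chow renin and, on the high-fat diet, 22.8 to 26.2 without renin and 23.2 to 29.3 with it, so that depth moved with the comparisons with chow control. With every library thinned to the smallest total, the number of members called was the same as with all reads in each of the 6 comparisons. Mitochondrial genes took 29.8% to 38.2% of the reads. Reads of Ren1, the renin gene of the mouse, were found in 4 of the 21 libraries, with at most 5 in any, so the heart counts gave no check of the renin label.

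Many neuronal genes are kept silent outside the nervous system by the repressor REST, which binds a DNA element called RE1. The promoters of the members were searched for that element, which is the shared switch best known for such genes. The RefSeq promoter table (mouse build GRCm38.p6) held 26 of the 36 members, with 40 windows of 250 bases before to 50 bases after the start. The letters searched were TTCAGCACC, then any 2 bases, then GGACAG, on both strands, with at most 3 mismatches over the 15 scored positions. This form was settled after a longer form of the element, which holds these letters, had been searched. Of all 32851 windows of the table, 385 held a match (1.17%), a count per window. For the members the count was per gene, so the 2 shares are not in like units. Matches were found for 2 of the 26 members, Gria2 and Gad2. Both are printed as the 250 bases before the start, with the matching letters in capitals.
Gria2, minus strand of chr3:80802836-80803085, a subunit of AMPA glutamate receptors: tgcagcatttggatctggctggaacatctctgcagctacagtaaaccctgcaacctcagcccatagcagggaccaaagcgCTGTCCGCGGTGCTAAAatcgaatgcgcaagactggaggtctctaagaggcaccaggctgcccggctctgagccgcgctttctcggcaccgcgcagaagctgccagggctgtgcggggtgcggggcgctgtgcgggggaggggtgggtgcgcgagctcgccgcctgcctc
Gad2, plus strand of chr2:22622077-22622326, an enzyme that makes GABA: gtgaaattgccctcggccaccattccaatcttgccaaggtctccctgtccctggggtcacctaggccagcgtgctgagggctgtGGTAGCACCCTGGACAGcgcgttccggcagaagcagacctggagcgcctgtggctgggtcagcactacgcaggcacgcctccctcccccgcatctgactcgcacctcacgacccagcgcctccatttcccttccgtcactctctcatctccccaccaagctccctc
The Gria2 match had 1 mismatch, lay on the strand opposite to the gene and spanned bases 170 to 154 before the start. At most 1 mismatch was found in 19 of the 32851 windows (0.0578%). The Gad2 match had 3 mismatches, lay on the strand of the gene and spanned bases 166 to 150 before the start. A match describes letters in these windows and nothing about binding, and elements farther from the start were not searched.

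All 36 members had a higher mean in chow renin than in chow control. In the fit across all genes, each of the 36 had an adjusted p under 0.05 in that contrast, where 10.1% of all genes tested were called higher; the list was chosen on it, and nothing is read from this count. Each chow renin library lay above each chow control library for 36 of 36 members, against 10.4% of all genes. For 35 of the 36, each chow renin library also lay above all 15 libraries of the other groups, against 6.16% of all genes, and the exception was Gad2. The ratio of the mean CPM values ran from 1.79 (Camk2a) to 6.9 (Olig2) with a median of 4.91. It was 4 to 6 for 24 members, at least 6 for 5 (Nrxn3, Dpp6, B3gat1, Dcx and Olig2), 3 to 4 for 3 (Cntn1, Syp and Ptprz1) and under 3 for 4 (Camk2a, Stmn2, Slc17a7 and Tubb3). The median log2 fold change was 2.29 for the members and −0.03 for all genes.

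**Figure D1:**
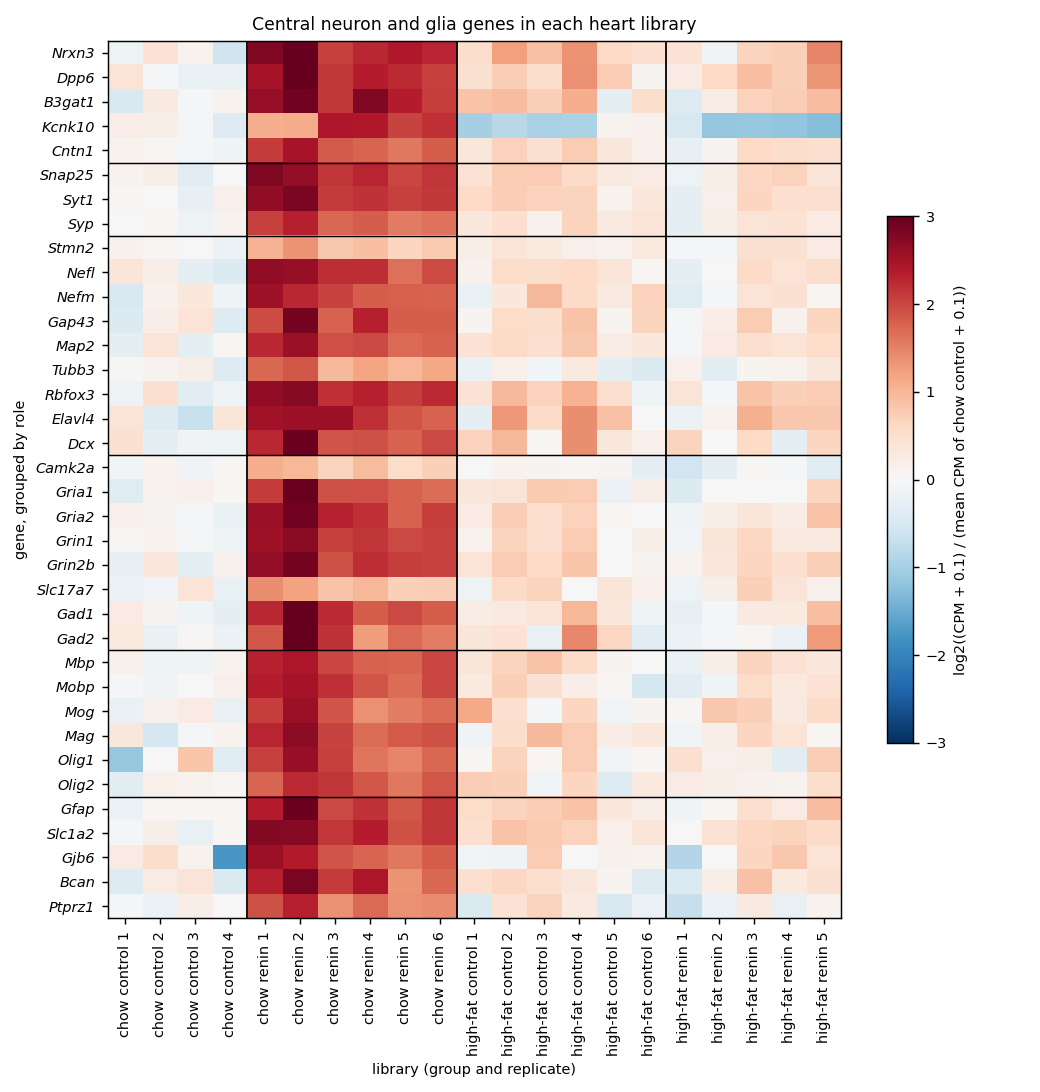
Level of each of the 36 genes (rows, grouped by role) in each of the 21 heart libraries (columns), as log2 of CPM plus 0.1 over the chow control mean plus 0.1 (red higher, blue lower). The 6 chow renin columns are red in every row, Kcnk10 has another order among them, and the high-fat columns are mostly pale red.

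Chow renin did not overlap with any other group for the 3 genes of vesicle release. Snap25, a SNARE protein of the presynaptic membrane, stood at 12.7, 13.4, 9.29 and 11.8 CPM in the 4 chow control libraries and at 10.6, 13.4, 18.3, 19.2 and 15.5 in the 5 high-fat renin libraries. It ran from 47.3 to 83.1 with a median of 55.4 in chow renin and from 13.9 to 20.003 with a median of 16.8 in high-fat control. The 6 high-fat control libraries all lay above the 4 chow control libraries, and high-fat renin overlapped with both of those groups. The log2 fold change of Snap25 in chow renin against chow control was 2.38 ± 0.19 (SE). Syt1, the calcium sensor of fast release, averaged 8.17 ± 0.909 CPM in chow control, 42.1 ± 10.4 in chow renin and, on the high-fat diet, 11.9 ± 1.94 without renin and 10.3 ± 2.48 with it (mean ± SD, as for all values of this form, with n = 4, 6, 6 and 5). Syp, a protein of the vesicle membrane, averaged 9.63 ± 0.753 CPM in chow control, 35.5 ± 7.62 in chow renin and, on the high-fat diet, 12.7 ± 1.65 without renin and 11.2 ± 1.98 with it. Per transcript length, Snap25 was at 5.48 TPM (transcripts per 1 M, adjusted for length) in chow control and 31.1 in chow renin, and Syp at 5.81 and 23.4.

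**Figure D2:**
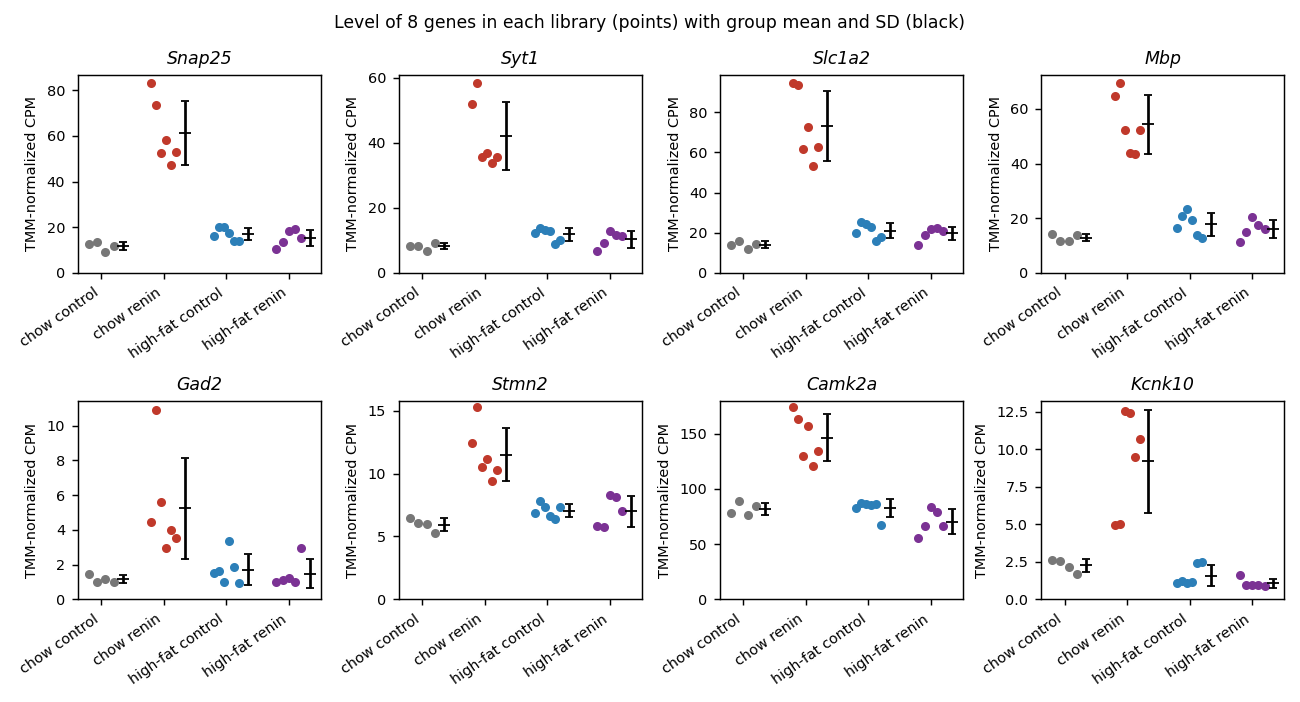
TMM-normalized CPM of 8 members in each library (points, by group) with the group mean and SD in black. Chow renin lies apart from the other groups for each gene but Gad2, and within chow renin Kcnk10 splits into 2 low and 4 high libraries.

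Among the 5 genes of adhesion, channels and the cell surface, log2 fold changes in chow renin against chow control ran from 1.99 to 2.63. Nrxn3, a presynaptic adhesion protein of the neurexin family, stood at 0.897, 1.39, 1.09 and 0.63 CPM in chow control and at 1.39, 0.928, 1.65, 1.71 and 2.96 in high-fat renin. It ran from 4.44 to 8.72 with a median of 5.47 in chow renin and from 1.45 to 2.72 with a median of 1.76 in high-fat control. Each chow renin library was above the rest, and the 6 high-fat control libraries were above the 4 of chow control. Dpp6, an auxiliary subunit of neuronal potassium channels, averaged 0.986 ± 0.245 CPM in chow control, 5.94 ± 2.14 in chow renin and, on the high-fat diet, 1.68 ± 0.566 without renin and 1.79 ± 0.536 with it. B3gat1, which makes the HNK carbohydrate of neural surface proteins, averaged 0.851 ± 0.193 CPM in chow control, 5.29 ± 1.25 in chow renin and, on the high-fat diet, 1.44 ± 0.434 without renin and 1.26 ± 0.433 with it. Cntn1, an adhesion protein of axons, averaged 3.22 ± 0.234 CPM in chow control, 12.8 ± 3.07 in chow renin and, on the high-fat diet, 4.51 ± 0.75 without renin and 4.07 ± 0.956 with it. Kcnk10, a background potassium channel, had a pattern of its own, given further on.

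The 9 genes of the neuronal cytoskeleton, growth and identity had log2 fold changes of 0.95 to 2.58 in the same contrast. Stmn2, a microtubule regulator of growing axons, averaged 5.95 ± 0.493 CPM in chow control, 11.5 ± 2.11 in chow renin and, on the high-fat diet, 7.05 ± 0.545 without renin and 7 ± 1.22 with it. Tubb3, a neuronal tubulin, averaged 3.39 ± 0.567 CPM in chow control, 8.87 ± 2.48 in chow renin and, on the high-fat diet, 3.22 ± 0.622 without renin and 3.6 ± 0.599 with it. These 2 had the smallest ratios of the role. Nefl and Nefm are the neurofilament light and medium chains, which fill axons. Nefl averaged 2.43 ± 0.652 CPM in chow control, 12.1 ± 3.13 in chow renin and, on the high-fat diet, 3.22 ± 0.51 without renin and 2.97 ± 0.746 with it. Nefm averaged 1.81 ± 0.429 CPM in chow control, 7.89 ± 1.86 in chow renin and, on the high-fat diet, 2.57 ± 0.719 without renin and 1.99 ± 0.468 with it. Gap43, a protein of growth cones, averaged 1.1 ± 0.348 CPM in chow control, 5.25 ± 1.85 in chow renin and, on the high-fat diet, 1.58 ± 0.356 without renin and 1.45 ± 0.383 with it. Map2, which binds the microtubules of dendrites, averaged 8.62 ± 2.07 CPM in chow control, 36.6 ± 9.16 in chow renin and, on the high-fat diet, 12.1 ± 1.82 without renin and 11 ± 1.74 with it. Rbfox3, the splicing regulator detected by the antibody NeuN, averaged 1.01 ± 0.296 CPM in chow control, 5.72 ± 1.12 in chow renin and, on the high-fat diet, 1.62 ± 0.476 without renin and 1.54 ± 0.382 with it. Elavl4, an RNA-binding protein of neurons, averaged 0.392 ± 0.174 CPM in chow control, 2.29 ± 0.562 in chow renin and, on the high-fat diet, 0.741 ± 0.366 without renin and 0.646 ± 0.253 with it. Dcx, a marker of young neurons, averaged 0.229 ± 0.0814 CPM in chow control, 1.4 ± 0.535 in chow renin and, on the high-fat diet, 0.427 ± 0.201 without renin and 0.328 ± 0.116 with it. Dcx rested on 3 to 7 reads in a chow control library and 26 to 67 in a chow renin library.

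The 8 genes of glutamate and GABA signalling had log2 fold changes of 0.84 to 2.38. Camk2a, the alpha subunit of the calcium and calmodulin kinase of excitatory synapses, had the smallest. It stood at 77.9, 88.7, 76.6 and 84.5 CPM in chow control and at 55.1, 66.4, 83.9, 79.4 and 66.2 in high-fat renin, and ran from 120.4 to 174 with a median of 146 in chow renin and from 67.2 to 87.5 with a median of 86 in high-fat control. Its chow control level, 25.6 TPM, was the highest of the members per transcript length, followed by Slc17a7 with 7.51 TPM. Slc17a7, a vesicular glutamate transporter, averaged 24.7 ± 5.38 CPM in chow control, 49.7 ± 9.65 in chow renin and, on the high-fat diet, 30.3 ± 6.83 without renin and 29.9 ± 6.81 with it. Its lowest chow renin library, at 40.6 CPM, was close to the highest high-fat renin library, at 40.3. The AMPA receptor subunits had larger ratios between chow renin and chow control than these 2. Gria1 averaged 2.2 ± 0.344 CPM in chow control, 9.98 ± 3.99 in chow renin and, on the high-fat diet, 2.98 ± 0.746 without renin and 2.35 ± 0.681 with it. Gria2, whose promoter window is shown above, averaged 3.71 ± 0.413 CPM in chow control, 19.3 ± 5.44 in chow renin and, on the high-fat diet, 4.94 ± 1.11 without renin and 4.74 ± 1.24 with it. Of the NMDA receptor subunits, Grin1 averaged 2.75 ± 0.2 CPM in chow control, 13.7 ± 3.1 in chow renin and, on the high-fat diet, 3.66 ± 0.818 without renin and 3.43 ± 0.607 with it. Grin2b averaged 2.67 ± 0.554 CPM in chow control, 13.8 ± 3.95 in chow renin and, on the high-fat diet, 3.77 ± 0.875 without renin and 3.73 ± 0.645 with it.

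Gad1 and Gad2 make GABA from glutamate and mark inhibitory neurons. Gad2 stood at 1.44, 1, 1.19 and 1.02 CPM in chow control and at 1.01, 1.12, 1.22, 1.01 and 2.96 in high-fat renin, and ran from 2.93 to 10.9 with a median of 4.23 in chow renin and from 0.921 to 3.35 with a median of 1.57 in high-fat control. Its groups overlapped: the lowest chow renin library (replicate 4) was below replicate 4 of high-fat control and below replicate 5 of high-fat renin. Gad1 averaged 1.82 ± 0.305 CPM in chow control, 9.42 ± 4.15 in chow renin and, on the high-fat diet, 2.41 ± 0.7 without renin and 2.25 ± 0.763 with it. Each chow renin library of Gad1 lay above those of the other groups.

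Oligodendrocyte and myelin genes had log2 fold changes of 2.08 to 2.73 across the 6 members. Mbp, the basic protein that compacts myelin and is also used by Schwann cells, stood at 14.2, 11.7, 11.8 and 13.9 CPM in chow control and at 11.3, 14.9, 20.5, 17.5 and 16 in high-fat renin. It ran from 43.5 to 69.7 with a median of 52.3 in chow renin and from 12.9 to 23.4 with a median of 17.9 in high-fat control. Chow renin did not overlap with the other groups, which overlapped among themselves. Mobp, a protein of central myelin, averaged 4.21 ± 0.349 CPM in chow control, 18.7 ± 3.93 in chow renin and, on the high-fat diet, 5.01 ± 1.38 without renin and 4.86 ± 1.23 with it. Mog, found on the outer face of central myelin, averaged 0.246 ± 0.0583 CPM in chow control, 1.2 ± 0.413 in chow renin and, on the high-fat diet, 0.367 ± 0.165 without renin and 0.391 ± 0.105 with it. Mag, an adhesion protein on its inner face, averaged 0.762 ± 0.207 CPM in chow control, 3.63 ± 1.03 in chow renin and, on the high-fat diet, 1.11 ± 0.323 without renin and 0.942 ± 0.214 with it. Olig1 and Olig2 are transcription factors that set the oligodendrocyte lineage. Olig1 averaged 0.338 ± 0.245 CPM in chow control, 1.61 ± 0.541 in chow renin and, on the high-fat diet, 0.434 ± 0.144 without renin and 0.432 ± 0.144 with it. Olig2 averaged 0.0904 ± 0.0277 CPM in chow control, 0.624 ± 0.124 in chow renin and, on the high-fat diet, 0.148 ± 0.0741 without renin and 0.126 ± 0.0284 with it, from 1 to 2 reads in a chow control library and 12 to 22 in a chow renin library.

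The 5 genes of astrocytes and progenitors had log2 fold changes of 1.77 to 2.44. Slc1a2, the main glutamate transporter of astrocytes, stood at 13.7, 15.9, 11.9 and 14.5 CPM in chow control and at 14.1, 18.9, 21.7, 22.4 and 21.1 in high-fat renin. It ran from 53.2 to 94.5 with a median of 67.5 in chow renin and from 15.7 to 25.5 with a median of 21.4 in high-fat control. Chow renin again lay apart, and 5 of the 6 high-fat control libraries were above the highest chow control library. Gfap, the intermediate filament of astrocytes, averaged 0.745 ± 0.0649 CPM in chow control, 4.02 ± 1.25 in chow renin and, on the high-fat diet, 1.16 ± 0.215 without renin and 0.986 ± 0.324 with it. Bcan, a proteoglycan of the brain matrix, averaged 1.01 ± 0.321 CPM in chow control, 5.03 ± 1.83 in chow renin and, on the high-fat diet, 1.28 ± 0.322 without renin and 1.3 ± 0.443 with it. Ptprz1, a receptor phosphatase of glial progenitors, averaged 2.39 ± 0.27 CPM in chow control, 8.16 ± 2.39 in chow renin and, on the high-fat diet, 2.6 ± 0.881 without renin and 2.21 ± 0.563 with it. Gjb6, an astrocyte connexin, averaged 0.237 ± 0.167 CPM in chow control, 1.28 ± 0.393 in chow renin and, on the high-fat diet, 0.28 ± 0.0983 without renin and 0.317 ± 0.162 with it and had no read in replicate 4 of chow control. It was the only member with a library at 0.

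A low count bears on 5 of the members. Dcx, Gjb6, Mog, Olig1 and Olig2 did not pass the filter in a fit of chow control with either high-fat group alone. In a fit of the high-fat groups, Gjb6 and Olig2 did not pass it, whereas Dcx, Mog and Olig1 did. Gjb6 and Olig2 therefore entered the tests through the chow renin libraries. Dcx, Mog and Olig1 entered the comparisons with chow control through libraries outside the groups compared.

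The excess in chow renin had a similar makeup in each of the 6 libraries. The summed level of the members was 214.5 to 234.8 CPM in chow control, 225 to 304 with the high-fat diet alone and 181 to 290.01 with renin added. In chow renin it was 850, 917, 634, 679, 559 and 615 CPM in replicates 1 to 6. Replicate 2 was the highest of the 6 for 27 members and replicate 1 for 7, whereas replicate 5 was the lowest for 21. After the chow control mean was taken off, the share of the summed excess that a member held varied between the 6 libraries with a coefficient of variation (CV) of 15.4% (median over the members). It was lowest for Syp (5.03%), Slc1a2 (5.17%), Grin1 (5.77%) and Rbfox3 (5.84%), and highest for Kcnk10 (58.4%), Gad2 (47.3%) and Gad1 (30.2%). Camk2a, Slc1a2, Snap25, Mbp and Syt1 together held 50.9% of the excess in reads, a share that also depends on transcript length.

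Ratios between members within a library were compared across the groups, and not all of them stayed alike. Mbp over Snap25 was 1.11 ± 0.168 in chow control, 0.899 ± 0.106 in chow renin and, on the high-fat diet, 1.04 ± 0.0862 without renin and 1.05 ± 0.0839 with it. The summed astrocyte members over the summed oligodendrocyte members gave 1 ± 0.144, 1.14 ± 0.156, 1.07 ± 0.0955 and 1.08 ± 0.0682 in the same order, with overlapping groups. For Camk2a over Snap25, chow renin stood apart: the ratio was 7.05 ± 0.897 in chow control, 2.43 ± 0.231 in chow renin and, on the high-fat diet, 4.94 ± 0.639 without renin and 4.63 ± 0.451 with it. Stmn2 over Snap25 was 0.514 ± 0.0905, 0.191 ± 0.0207, 0.423 ± 0.0602 and 0.462 ± 0.0513 in that order. Of the summed level of the members, Camk2a held 37.1% ± 1.4 in chow control and 20.9% ± 1.79 in chow renin, and Slc17a7 held 11.2% ± 2.67 and 7.03% ± 0.513.

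**Figure D3:**
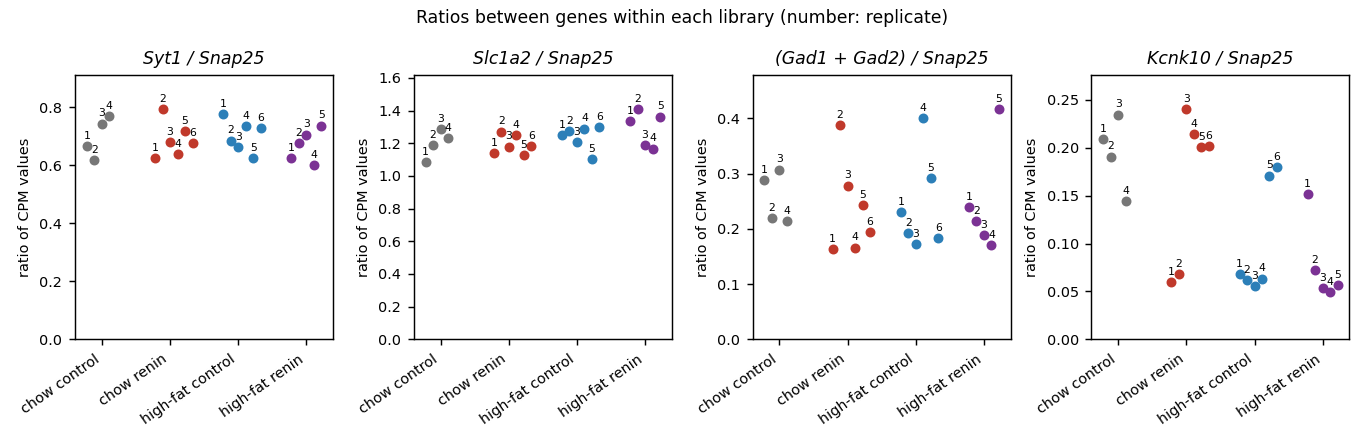
Ratio of the CPM values of named genes to Snap25 in each library (points, numbered by replicate, by group). Syt1 and Slc1a2 keep similar ratios in all 4 groups, the GAD genes stand high in 3 libraries (0.387, 0.4 and 0.417), and Kcnk10 splits chow renin into replicates 1 and 2 against 3 to 6.

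The GAD genes set 3 libraries apart, each from another group. Gad1 plus Gad2 over Snap25 was 0.387 in replicate 2 of chow renin, 0.4 in replicate 4 of high-fat control and 0.417 in replicate 5 of high-fat renin, and at most 0.307 in the other 18 libraries. Of the 8 striatal genes in a list of brain regions, 4 had an adjusted p under 0.05 in chow renin against chow control, among them Drd1, Rgs9 and Pde10a, of which the first 2 were singled out after their values were seen. Drd1 is a dopamine receptor, Rgs9 acts on G protein signalling, and Pde10a breaks down cyclic nucleotides, all in medium spiny neurons, which use GABA. The summed level of these 3 was 19.3 CPM in replicate 2 of chow renin against 6.06 to 10.6 in the other 5 libraries of that group. It was 5.91 CPM in replicate 4 of high-fat control, against 2.99 to 3.78 in the rest of that group, and 6.77 in replicate 5 of high-fat renin, against 3.25 to 5.82 in the rest. In chow control it was 2.96 to 3.61 CPM. Over Snap25, the sum was 0.244 to 0.318 in the 4 chow control libraries, a range that holds the highest chow renin value: it was 0.262 in replicate 2 of chow renin against 0.0729 to 0.225 in the rest, and 0.335 in replicate 4 of high-fat control against 0.149 to 0.266 in the rest. In high-fat renin it was 0.437 in replicate 5 and higher, 0.5498, in replicate 1. The 3 other most abundant genes of the striatal list were not called: Adora2a, an adenosine receptor (0.04 on the log2 scale), Penk, a precursor of enkephalin (0.21), and Drd2, a dopamine receptor (−0.06).

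Kcnk10 did not follow the other members. It stood at 4.97, 5.03, 12.6, 12.4, 9.5 and 10.7 CPM in chow renin replicates 1 to 6, so that the 2 libraries with the highest Snap25 had the lowest Kcnk10. Its levels in chow control were 2.64, 2.56, 2.18 and 1.7 CPM. In high-fat control they were 1.09, 1.24, 1.11, 1.12, 2.43 and 2.5 and in high-fat renin 1.6, 0.966, 0.969, 0.942 and 0.872 CPM. Replicates 5 and 6 of high-fat control and replicate 1 of high-fat renin were high in their groups for Kcnk10, and the first 2 of these were the lowest of high-fat control for 28 of the 36 members together. In a list of 9 genes of stimulated cells, picked earlier from these libraries, Areg, an epidermal growth factor receptor ligand, and Tnfsf11, a cytokine of the tumour necrosis factor family, divided chow renin in the same way. Areg was at 3.04 and 2.41 CPM in replicates 1 and 2 and at 6.77 to 8.01 in the others, and Tnfsf11 at 2.98 and 3.17 and at 7.06 to 7.72. Of the other 7, Cxcl3, a chemokine, was also lowest in replicates 1 and 2, at 31.8 and 33.8 against 37.8 to 40.3 CPM. The other 6 did not divide in this way, and Fosl1, a transcription factor, was at 5.68 and 6.46 in replicates 1 and 2 and at 4.23 to 5.82 in the others. These 4 genes were singled out after their values were seen.

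High-fat diet alone was compared with the chow control libraries, which had helped to choose the list. Against chow control, 0 of the 36 members were called in high-fat control by the quasi-likelihood test of edgeR at an adjusted p under 0.05, where 0.0657% of all genes were called (10 of 15216), and 0 by DESeq2, which called 117 genes. An unadjusted p under 0.05 was reached by 17 members, all higher in high-fat control, against 11% of all genes in either direction. The log2 fold change was above 0 for 34 of 36 members, against 52.4% of all genes, with a median of 0.49 against 0.01. In a fit of these 2 groups alone, which Dcx, Gjb6, Mog, Olig1 and Olig2 did not enter, it was above 0 for 29 of 31 members with a median of 0.48, and 16 had an unadjusted p under 0.05, all higher. The members with the lowest p were Slc1a2 (0.58 ± 0.18, SE, adjusted p = 0.224), Nrxn3 (0.96 ± 0.30, adjusted p = 0.243), Snap25 (0.53 ± 0.18), Syt1 (0.54 ± 0.19), Map2 (0.50 ± 0.18) and Rbfox3 (0.69 ± 0.25). For Nrxn3, Cntn1, Snap25, Syp and Gfap, all 6 high-fat control libraries lay above the 4 of chow control, which held for 1.06% of all genes. Replicate 4 of high-fat control was the highest of its group for 18 members and replicate 2 for 8, whereas replicate 6 was the lowest for 15 and replicate 5 for 13. The members share these libraries and rise and fall together in them, so the 34 are not independent observations. The 2 members with a negative value were Kcnk10 and Tubb3.

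**Figure D4:**
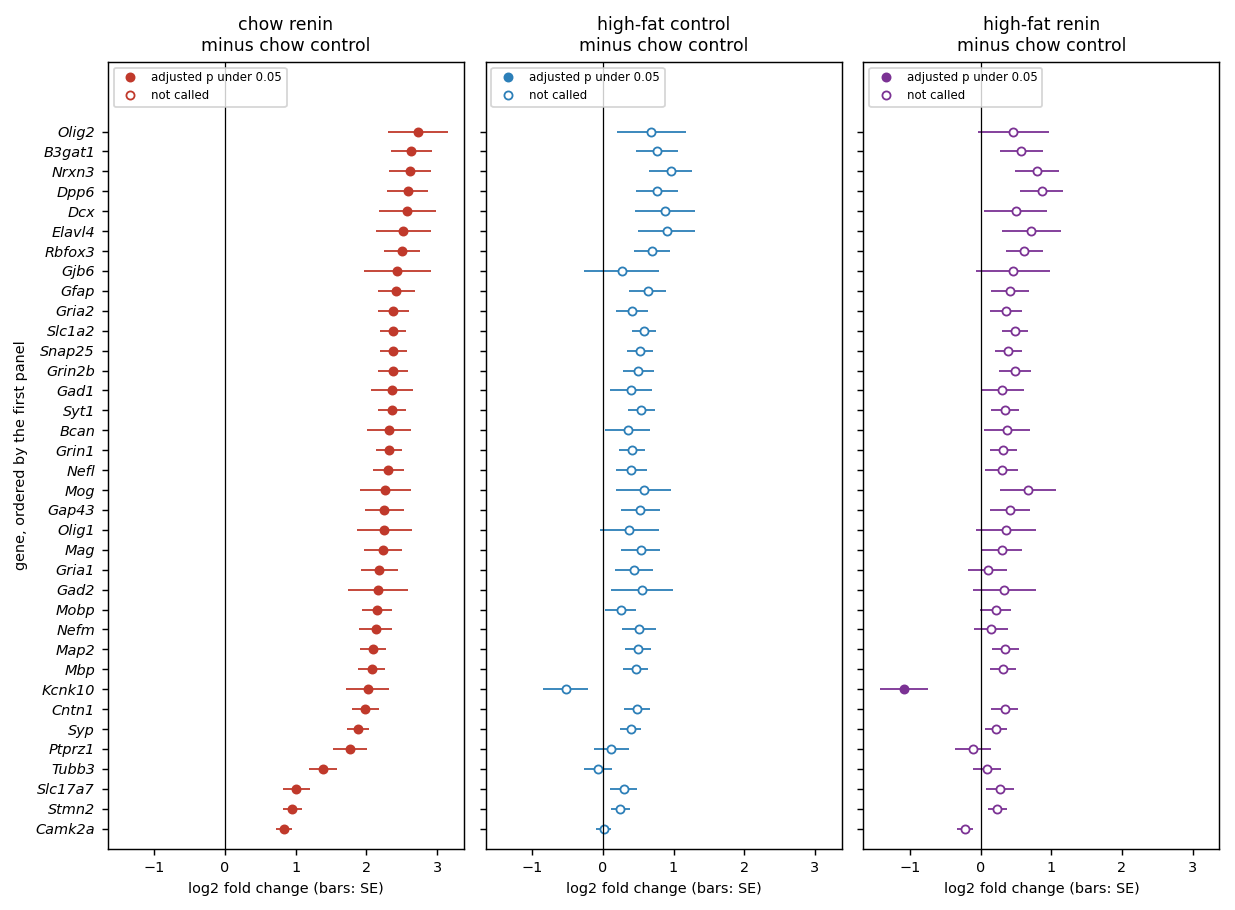
Log2 fold change (points, bars are SE) of the 36 members against chow control in chow renin, high-fat control and high-fat renin, ordered by the first panel, with filled points at an adjusted p under 0.05. For chow renin, the contrast that chose the list, all 36 are filled; for high-fat control 0 are, and for high-fat renin 1, Kcnk10, is. Most open points lie above 0.

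Renin on the high-fat diet was not followed by a called difference in any member. Against high-fat control, 0 of 36 members were called in high-fat renin by edgeR and 0 by DESeq2, where edgeR called 11.1% of all genes, and 1 member had an unadjusted p under 0.05. That member was Camk2a (log2 fold change −0.24 ± 0.10, SE; adjusted p = 0.146 by edgeR), and 26.5% of all genes had such a p. The values were below 0 for 31 members, with a median of −0.14 against −0.01 for all genes. In the fit of these 2 groups alone, which Gjb6 and Olig2 did not enter, 4 of 34 members were above 0 with a median of −0.15. With 1 library left out the median over the 36 ran from −0.19 (without replicate 5 of high-fat renin) to −0.04. It moved by more than 1.5 times for 5 libraries, each time toward 0: −0.04 without replicate 1 of high-fat renin (11 members above 0), −0.09 without replicate 2 (10 above 0), and −0.09, −0.09 and −0.07 without replicates 2, 3 and 4 of high-fat control (12, 8 and 12 above 0). The next lowest p belonged to Kcnk10 (−0.56 ± 0.31), Nefm (−0.37 ± 0.21), Gria1 (−0.34 ± 0.24), Syp (−0.18 ± 0.13) and Syt1 (−0.20 ± 0.17). These 5 had an unadjusted p above 0.05.

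Both hits together, high-fat renin against chow control, gave 1 called member of 36 (2.78%, against 8.29% of all genes). Kcnk10 was lower by edgeR (log2 fold change −1.09 ± 0.34, SE; adjusted p = 0.0492), with each of the 5 high-fat renin libraries below each of the 4 chow control libraries. The call was lost under 12 of 17 alternatives, among them each fit that left out 1 of the 4 chow control libraries, and the adjusted p ranged from 0.0136 to 0.339. The other members were not called. Of all 36, 33 had a value above 0, with a median of 0.35 against 0.01 for all genes, and the lowest p among those not called belonged to Dpp6 (0.86 ± 0.30, adjusted p = 0.0801), Slc1a2 (0.49 ± 0.18), Nrxn3 (0.80 ± 0.31), Rbfox3 (0.62 ± 0.26), Grin2b (0.49 ± 0.22) and Snap25 (0.39 ± 0.19). In the fit of these 2 groups alone, 28 of 31 were above 0 with a median of 0.33. This comparison shares its chow control libraries with that of high-fat control and with the contrast that chose the list. In the authors' deposited table, whose comparison of the high-fat renin hearts does not state its reference, 1 of the 36 members had an adjusted p under 0.05, Kcnk10, with a log2 fold change of −0.48 and an adjusted p of 0.026. Values in the authors' deposited table were above 0 for 33 members and at most 0.29.

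Contrasts of high-fat renin with chow renin gave lower values for every member. In high-fat renin against chow renin all 36 were lower (12.8% of all genes were called lower), with log2 fold changes of −3.11 (Kcnk10) to −0.72 (Stmn2) and a median of −1.89. The interaction, which is the renin effect under high-fat feeding minus the renin effect on chow, was negative for all 36 (7.3% of all genes were called lower), from −2.96 (Dcx) to −0.96 (Stmn2), with a median of −2.41. Both contrasts rest on the libraries that chose the list and are a description.

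Genes of the same kinds outside the 36 were counted in lists. These lists were also put together with earlier results known, and none was tested as a set. In chow renin against chow control, where 10.1% of all genes were called higher, 18 of 20 other genes of synaptic vesicles and scaffolds were called higher, with a median log2 fold change of 1.68. Among the most abundant of them were Vamp2 (0.07 on the log2 scale, not called), Rab3a (0.0028, not called) and Nsf (0.73), all of the release machinery. Of 18 other glutamate and GABA receptors and transporters, 15 were called higher (median 2.24), including Slc12a5, the neuronal chloride exporter (1.73), and Gria3, an AMPA receptor subunit (1.68). Of 14 other oligodendrocyte and myelin genes, 8 were called higher (median 0.57), including Cnp (0.56). Mal, the most abundant of these genes (0.11), and Tspan2 (0.13) were not called. Of 12 other astrocyte genes, 5 were called higher (median 1.34), including Aldoc (2.49), whereas Slc4a4 (0.04) and Fgfr3 (0.26) were not called. Ndrg2, the most abundant gene of that list, was at 1266 ± 37.8 CPM in chow control and 1215 ± 31.7 in chow renin, and was not called.

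Lists of brain regions and of microglia gave other counts. Of 10 telencephalon genes, 9 were called higher (median 2.11), including Tbr1, a transcription factor of cortical projection neurons (2.27), Nrgn, a postsynaptic protein (1.59), and Cck, a neuropeptide (2.08). Of 8 striatal genes, 4 were called higher. Of 5 cerebellar genes tested, 0 were called higher by edgeR or DESeq2 and 1, Car8, lower (−0.44), and 1 of those higher had an unadjusted p under 0.05. Of 2 tested genes of midbrain, hindbrain and spinal cord, and 2 of choroid plexus and ependyma, 0 were called by either tool and 0 had an unadjusted p under 0.05. Of 7 microglia genes, 0 were called by either tool and 2, both higher in chow renin, had an unadjusted p under 0.05, with a median of 0.24. Of the more abundant microglia genes, Tmem119 was at −0.29, Cx3cr1 at 0.33 and Gpr34 at 0.14 on the log2 scale, and none of these 3 was called. No gene of the list of hypothalamus and pituitary passed the filter.

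Peripheral nerve genes gave another count. Of 6 tested genes of autonomic neurons, 1 was called higher, Npy, a peptide of sympathetic and of cortical neurons, which was singled out after its values were seen. Dbh, which makes noradrenaline, was at 0.846 ± 0.17 CPM in chow control and 0.821 ± 0.229 in chow renin. Of 10 Schwann cell genes, 4 were called higher, among them Egr2, Drp2 and S100b, singled out after their values were seen. S100b is also a gene of central glia. Pmp22, a protein of peripheral myelin, was at 34.2 ± 5.27 and 33.8 ± 3.92 CPM, and Sox10 at 2.34 ± 0.478 and 2.73 ± 0.599. Lists of liver, kidney, fast skeletal muscle, intestine and pancreas, keratinocyte and retina had only 2, 2, 3, 3, 2 and 1 genes tested, of which 0 were called by edgeR or DESeq2 and 0 had an unadjusted p under 0.05. Proliferation genes were called higher for 10 of 10 (median 1.41), and 2 of 10 cardiomyocyte genes, Myh6 (−0.25) and Actc1 (−0.50), were called lower. The stimulated genes, picked earlier from these libraries, were called higher for 9 of 9 (median 2.11), and nothing is read from this count. The part of these other changes in the levels of the members was not tested. In high-fat control against chow control, edgeR and DESeq2 each called 0 of the 151 tested genes of all lists, and 22 had an unadjusted p under 0.05, 17 of them higher in high-fat control. Whether the transcripts of neurons and glia in the chow renin libraries came from cells of the heart or from RNA of brain tissue was not tested.

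**Figure D5:**
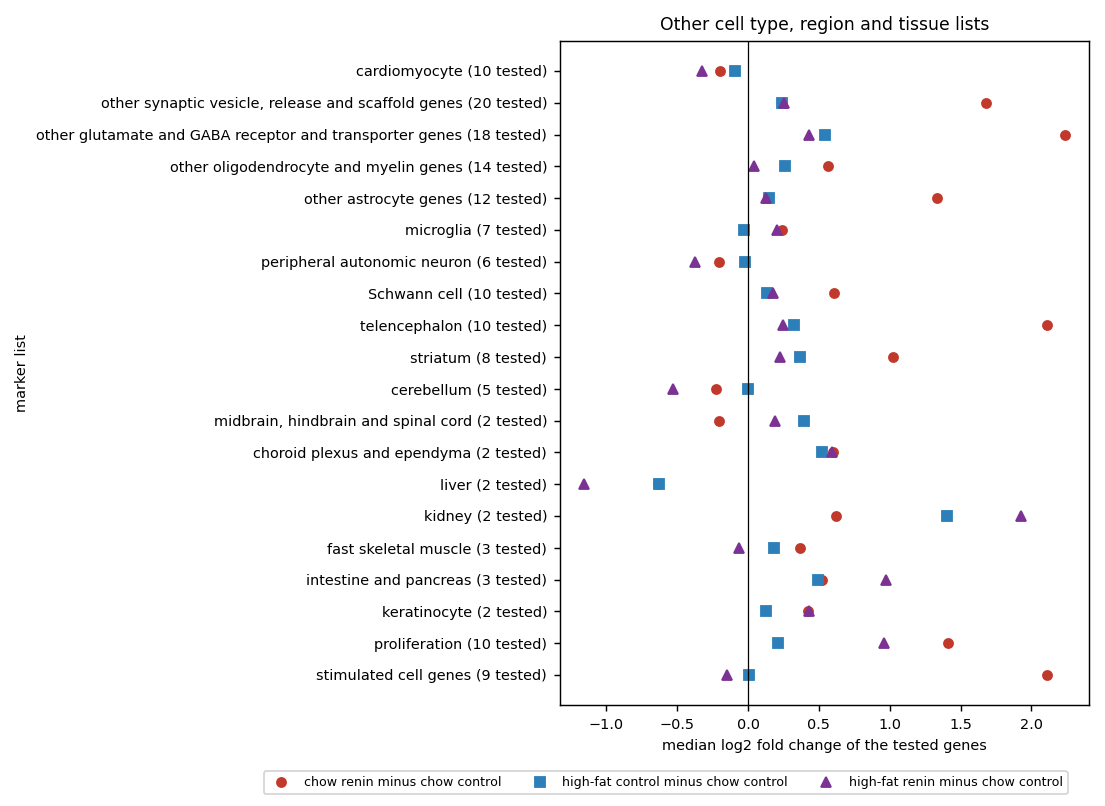
Median log2 fold change of the tested genes in each list (rows) against chow control, for chow renin (circles), high-fat control (squares) and high-fat renin (triangles). Synaptic, receptor, telencephalon and stimulated-cell lists lie farthest right in chow renin, with medians of 1.68 to 2.24, and microglia and cerebellum near 0. The stimulated-cell list was picked from earlier results of these libraries, so its place is a description.

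The transcripts behind the genes were compared for the 21 members with at least 100 reads per group. The leading transcript in chow renin and in chow control was the same for 18 of them, and differed for Grin1, Map2 and Ptprz1. Snap25-201 held 94.4% ± 3.39 of the Snap25 reads in chow control and 93.9% ± 2.58 in chow renin, and Slc1a2-202 held 99.4% ± 0.726 and 99.6% ± 0.266. In Cntn1 the makeup differed. Cntn1-203, annotated as a retained intron with no protein, held 37.2% ± 8.96 of the reads in chow control, 12.2% ± 3.64 in chow renin and, on the high-fat diet, 36% ± 5.32 without renin and 38.9% ± 10.7 with it. Its share was at most 16.7% in a chow renin library and at least 27.5% in any other. For Mbp, the share of the protein-coding transcript Mbp-211 was 58.5% ± 8.34, 71.6% ± 0.981, 63.2% ± 3.71 and 60.1% ± 3.12 in the same order, and every chow renin library was above every other library. On TPM, its share was 63.5% ± 9.7 in chow control and 70.3% ± 2.67 in chow renin, a gap within the chow control SD. The main protein-coding transcript of Map2 in chow renin held 34.2% ± 4.17, 43.9% ± 2.34, 35.4% ± 2.42 and 33.1% ± 6.3 of the reads in the order of groups above, again with no overlap. On TPM, it held 26.4% ± 4.43 in chow control and 32.2% ± 2.22 in chow renin. Kcnk10-202 held 61.3% ± 12.8 in chow control and 54% ± 2.43 in chow renin, within the spread.

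A few values carry limits from counting. Nefl and Nefm lie on opposite strands with overlapping exons, as do B3gat1 and Glb1l2, and whether strand was used in counting is not given in the sources used here. In the deposited gene matrix, Gjb6 had a signal of 1.5 to 2.1 in 5 libraries in which about 1 read was assigned to Gjb6-203, a short processed transcript, and it was the only member not called in chow renin against chow control on that signal.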

How the data were processed

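Groups came from the sample labels. Per the file headers and values, the authors deposited, for each library, a transcript table with estimated counts (expected counts, with decimals) and TPM, and a gene matrix with a signal per library, with the log2 fold change and adjusted p-value of a comparison of their own. Per the submitters' processing notes, Salmon 1.10.2, DESeq2 1.40.2 and the build GRCm38 were used.

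Estimated counts were summed to genes of GENCODE M21, by identifiers that matched for 97.95% of 119215 transcripts (unmatched reads 0.854% to 0.925%), and rounded. Differences were tested in edgeR 4.0.16 (R 4.3.3; filterByExpr, TMM factors 0.886 to 1.09, 1 term per group over 21 libraries, glmQLFit with robust estimation, quasi-likelihood F test), with Benjamini-Hochberg adjustment over all 15216 genes and a call at an adjusted p under 0.05. The SE is the absolute log2 fold change over the square root of F. On simulated data for high-fat control against chow control (15041 genes), 78.6% of genes changed by 1 and 96% of those changed by 2 on the log2 scale were recovered, 4.95% of calls were false, and unchanged counts gave 0 calls. Per-library levels are TMM-normalized CPM.

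Alternatives were DESeq2 1.42.0, upper-quartile factors, no filter, a replicate block, only the groups compared, thinning, limma 3.58.1 on log2 of the deposited signal plus 1 or 0.1, and leaving out each replicate. The members, their roles and all lists were chosen with earlier results of these data known. All members are named. A fold change is given for called members and for at most 6 others per comparison, those with the lowest p, and from each other list at most 4 genes are named, those with the highest mean CPM, unless marked as singled out. Some genes of these lists are not reported here by name. Nothing in the labels says how libraries were prepared in batches, and Xist was not analysed here.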

Additional observations from a re-analysis of the deposited data

Results flagged for a closer look

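In 148 groups of 4 to 6 libraries, for the 36 members and their summed level in each of the 4 groups of mice, a library far from the others of its group was found 11 times, where chance gives about 1 in 20. Replicate 2 of chow renin was high for 6 members: Gad1 (17.6 CPM), Gad2 (10.9), Gria1 (17.9), Dpp6 (10.1), Gfap (6.42) and Dcx (2.44). The same library had the highest summed level of the members, 917 CPM. Replicate 5 of high-fat renin was high for Gad2, at 2.96 CPM. Replicate 1 of high-fat renin was high for Kcnk10, at 1.6 CPM, and replicate 3 of high-fat control for Gjb6, at 0.475. Low values were those of Camk2a in replicate 6 of high-fat control, 67.2 CPM, and of Gfap in replicate 1 of chow control, 0.647 CPM. The interaction term of renin and diet was negative with an edgeR adjusted p under 0.05 for 36 of 36 members, against 7.3% of all genes. It rests on the libraries that chose the list and is a description.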

How the results depend on the processing

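No member named with a fold change changed sign in that comparison under the alternatives run. The number of members above 0 ran from 32 to 35 of 36 in high-fat control against chow control, from 4 to 12 for renin within the high-fat diet and from 31 to 33 for both together against chow control, besides the fits of only the groups compared. On the deposited signal plus 1, the medians of the members in these comparisons were 0.16, −0.04 and 0.12. Contrasts that hold chow renin rest on the libraries that chose the list, so their refits are a description and lend the calls no support. In chow renin over chow control, 10.1% of all genes were called higher in the main fit. The 36 calls of that contrast held for all members under 16 of 18 alternatives, and under both fits of the deposited signal Gjb6 was lost. The same 2 fits lost Gjb6 between high-fat renin and chow renin, and for the interaction they lost Gjb6, with Mag at a pseudocount of 0.1, as did the fit without replicate 3 of high-fat control for Gjb6 (adjusted p = 0.0587, edgeR). For high-fat renin against chow control, the count of called members, 1, went to 0 without the filter, with the replicate block, and on the deposited signal with either pseudocount, and ranged from 0 to 1 when a replicate was left out (the cause was not tested). Counts of 0 in the other 2 comparisons were 0 under all alternatives. Over all genes, high-fat control against chow control gave 10 calls with edgeR, 117 with DESeq2, 5 with only the groups compared, 0 after thinning and 0 to 57 with a replicate left out, and high-fat renin against high-fat control gave 1696, 549 with only the groups compared, and 696 to 2394. The share of Camk2a in the summed level of chow renin was 20.9% of CPM and 17.8% of TPM, and that of Mbp-211 within Mbp was 71.6% of reads and 70.3% of TPM.

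The deviations of libraries with the same replicate number had a median r of 0.0775 (−0.226 to 0.421 over 28 pairs). Those of other pairs had a median of −0.0248 (−0.263 to 0.403 over 136). Of 21 libraries, 7 correlated best with one of their own number, and the number given by chance was not worked out. These values do not settle whether the numbers mark pairs. The labels give them only as replicate numbers, and the main fit did not take them as pairs. With the replicate block, 0 members were called in each comparison of the groups other than chow renin. In high-fat control against chow control, 0 genes were called with it. All 36 members were called for chow renin over chow control, the contrast that chose the list, and nothing is read from this count. Recovery at few reads, as for Olig2, was not simulated apart from that of other genes, so a missing call in such a member does not show that its level was the same.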
